A study of Rattus norvegicus with 6 samples.

Results

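The genes of the unfolded protein response (UPR) and the targets of Atf4 were examined in the RNA-seq data of rat H9c2 cells with and without Nono. A list of 45 gene symbols defined the group, and 44 of them have a row in the table of 16319 genes. The symbol Vimp has none. Each listed gene was placed by its role in 1 of 5 groups: sensors, proteases and Atf6-like factors (9 genes), folding and translocation in the endoplasmic reticulum (ER; 10 genes), ER-associated degradation (9 genes with a row), regulators and effectors of the Atf4 arm (10 genes), and amino acid and one-carbon enzymes of the Atf4 arm (6 genes).

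Nono encodes a nuclear RNA- and DNA-binding protein, and H9c2 is a myoblast line derived from embryonic rat heart. The series holds 3 libraries of wild type (WT) H9c2 cells and 3 of H9c2 cells with a Nono gene knockout (Nono-KO), and the labels name no other treatment. The knockout was made with Cas9 and 1 guide RNA against exon 6 on a plasmid that carries puromycin resistance, and the study's scheme shows isolation and expansion of a single clone after puromycin selection. A pEGFP-N1 plasmid served as the control plasmid of the transfection, but the labels do not say whether the cells of the WT libraries had received it. The effect of Nono loss and a difference between this clone and the parental cells cannot be told apart, and p-values measure only the spread between libraries. The study's methods call the RNA-seq replicates biological, and the labels do not say how they were separated.

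Proteins that enter the secretory pathway fold in the ER, and the UPR adjusts the capacity of the ER to the load. Atf6 is a membrane-bound transcription factor that moves to the Golgi under stress, where the proteases encoded by Mbtps1 and Mbtps2 release its active part. Ern1 (Ire1) is a kinase and endoribonuclease that removes an intron from Xbp1 mRNA, which lets the active factor be made. Both arms raise chaperones, oxidases and degradation factors. The kinase Eif2ak3 (Perk), like the other kinases of the integrated stress response, phosphorylates eIF2alpha, which lowers translation in general and favours translation of Atf4 mRNA. Much of the regulation of Atf6, Xbp1 and Atf4 takes place by cleavage, splicing and translation, which gene counts do not measure.

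Promoter motifs of the 2 arms are shown here because the members were read as targets of these factors. RefSeq promoters (build GRCr8, 250 bases before to 50 after the annotated start) were matched by symbol for 38 of the 44 genes, and Ero1a, Manf, Derl1, Pdia6, Ern1 and Atf6 had no match. The ER stress response element was searched on both strands as CCAAT, then 9 bases of any kind, then CCACG. It was found in 4 of the 38 promoters (10.5%) and in 0.0657% of all 33469 promoters. The 3 given here carry the pair of blocks in capitals, written 5′ to 3′ along the gene, and in Creld2 and Derl3 the blocks read in the opposite orientation. The other promoter with this element was that of Ero1b.
Xbp1, chr14:84604538-84604596, plus strand: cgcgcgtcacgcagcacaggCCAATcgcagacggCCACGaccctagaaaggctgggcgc
Creld2, chr7:121789219-121789277, plus strand: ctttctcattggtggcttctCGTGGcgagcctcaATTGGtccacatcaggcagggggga
Derl3, chr20:12766581-12766639, minus strand: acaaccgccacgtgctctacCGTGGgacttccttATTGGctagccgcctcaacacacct

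The C/EBP-Atf response element, to which Atf4 binds with a C/EBP partner, was searched as TGATGNAA on both strands. It was found in 5 of the 38 promoters (13.2%) and in 3.98% of all promoters. The element, or its reverse complement TTNCATCA, stands in capitals.
Trib3, chr3:161275534-161275574, minus strand: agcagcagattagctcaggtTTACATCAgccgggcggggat
Chac1, chr3:126795944-126795991, plus strand: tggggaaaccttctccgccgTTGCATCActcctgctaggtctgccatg
Nupr1, chr1:190645929-190645976, minus strand: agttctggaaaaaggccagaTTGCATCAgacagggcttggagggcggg
Ppp1r15b, chr13:47129802-47129849, plus strand: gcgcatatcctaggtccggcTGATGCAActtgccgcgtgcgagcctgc
Herpud1, chr19:10614864-10614911, minus strand: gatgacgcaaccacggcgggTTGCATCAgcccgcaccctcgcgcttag

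The shorter UPRE core TGACGTGG was found only in the promoter of Hyou1 among the 38 and in 0.595% of all promoters. The CCACG block alone, which the longer element contains and which also overlaps the UPRE core, was found in 28 of 38 (73.7%) and in 31.6% of all promoters. The shares over all promoters count promoters and include genes that were not tested, whereas members were counted by gene. Of the 9354 tested genes with a promoter, 4570 held the CCACG block and 90 the UPRE core. The ER stress response element was found in 16 of these genes and the C/EBP-Atf element in 199. A match describes letters in this window and is not a bound site. The 28 genes with the short block include members that rose and members that fell, as do the 5 genes with the C/EBP-Atf element.

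Libraries held 17612958 to 19253858 counts. Nono fell from 7329, 5884 and 5519 counts in WT to 109, 94 and 96 counts in the knockout (log2 fold change -5.89, standard error 0.13, adjusted p = 2.47e-10), so each library matched its label. WT replicate 1 stood apart from WT replicates 2 and 3 (chi-square of the counts per degree of freedom 23.8 and 24.4, against 11.3 between the latter and 2.60 to 10.3 among the Nono-KO libraries), and no pair agreed within sampling noise. Of 8 myoblast markers 7 had a row, with a summed level of 5111 to 5759 CPM (counts scaled to a common library size) in WT and 4617 to 4781 CPM in Nono-KO. Vim, which makes up most of that sum, fell (from 4756 to 3765 mean CPM, log2 fold change -0.34), while Myog (from 6.50 to 106 mean CPM, log2 fold change 4.03), Des (from 22.1 to 96.8 mean CPM, log2 fold change 2.13) and Mymk (from 4.99 to 16.1 mean CPM, log2 fold change 1.69) rose, and Myod1 did not pass (126 and 151 mean CPM in WT and Nono-KO, log2 fold change 0.26, adjusted p = 0.0501). Cdh15 did not pass either (485 and 572 mean CPM in WT and Nono-KO, log2 fold change 0.24, adjusted p = 0.0704), and Chrna1 was not tested. Of the 9 cardiomyocyte markers, summed at 47.9 to 126 CPM in WT and 173 to 200.1 CPM in Nono-KO, Myl7, Nppa and Ryr2 had 0 to 2 counts per library, whereas Nkx2-5 (from 20.9 to 40.6 mean CPM, log2 fold change 0.96) and Actn2 (3, 3 and 3 counts in WT against 19, 24 and 19 in Nono-KO) rose. Tnnt2 had 13.4, 78.0 and 83.0 CPM in the WT libraries and 111, 135 and 137 CPM in the Nono-KO libraries and did not pass (adjusted p = 0.180), and its level in WT replicate 1 sets the low end of the WT sum. Gata4 (log2 fold change 0.23, adjusted p = 0.0992) and Myh6 (log2 fold change -0.42, adjusted p = 0.397) did not pass, and Tnni3 was too low to be tested. All 5 smooth muscle markers rose, with sums of 6356 to 7139 CPM in WT and 14321 to 15375 CPM in Nono-KO, while 3 of 4 tested fibroblast markers fell and 1 rose, with sums over 6 genes of 34210 to 41827 CPM in WT and 25222 to 30093 CPM in Nono-KO. Endothelial and immune markers (3 of 5 with a row) summed to 0.501 to 1.44 CPM in WT and 0.234 to 0.688 CPM in Nono-KO. The part of these marker differences in the results on the ER genes was not tested. Fewer cells that express a gene and less RNA per cell cannot be told apart in such libraries.

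Levels are given as CPM with library sizes scaled by TMM (trimmed mean of M values), values with ± are the mean and SD of the libraries of a group (n = 3), and rose or fell means an adjusted p under 0.05 by edgeR's quasi-likelihood test with Benjamini-Hochberg adjustment over the 12028 genes tested, among them all 44 members. Of the 44 members, 15 rose (34.1%), 14 fell (31.8%) and 15 did not pass. Over all tested genes 34.2% rose and 38.1% fell, so the members rose about as often as tested genes in general. Without WT replicate 1 the counts were 17 and 15. The median log2 fold change was 0.09 over the members and -0.05 over all tested genes. Differentially expressed genes (DEGs), for which a log2 fold change above 1 or below -1 and an adjusted p under 0.01 were required, numbered 3 higher (Creb3, Atf5 and Trib3) and 5 lower (Ern1, Atf6, Edem3, Edem1 and Ppp1r15b). Ppp1r15b lay just past the fold limit and was not a DEG with DESeq2 (log2 fold change -0.98), RLE size factors (-0.96) or a filter of 1 CPM in 3 libraries (-0.99), nor without Nono-KO replicate 1 (-0.99), Nono-KO replicate 2 (-0.96) or WT replicate 2 (-0.97). Chac1 became a DEG with RLE size factors (1.01), without Nono-KO replicate 3 (1.01) and without WT replicate 1 (1.17), where Atf5 was none (0.96). Among all tested genes 10.8% were DEGs with higher and 18.7% DEGs with lower expression in Nono-KO. All 3 Nono-KO libraries lay above all 3 WT libraries in 17 members and below them in 16, against 36.1% and 39% of all tested genes, and the groups overlapped in 11. An exact permutation test of 3 against 3 libraries cannot give a p below 0.1 for a single gene.

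**Figure D1:**
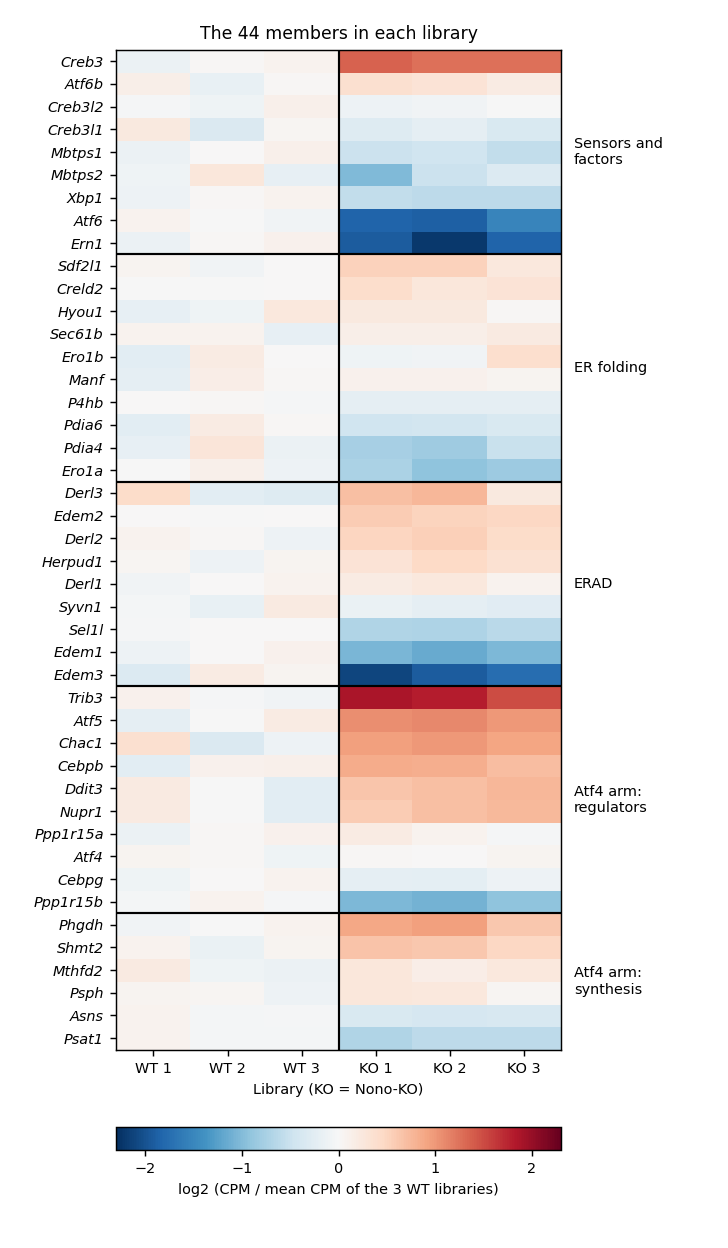
Heatmap of the 44 members in the 6 libraries, grouped by role, where colour gives the log2 of the CPM divided by the mean CPM of the 3 WT libraries (red higher, blue lower). Ern1, Atf6, Edem3, Edem1 and Ppp1r15b are low in the 3 Nono-KO libraries and Trib3, Creb3 and Atf5 are high, while Atf4 shows little contrast.

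Among the sensors and factors, the mRNAs of the stress sensors Ern1 and Atf6 fell the most and that of Creb3 rose. Of the 9 genes 4 fell (44.4%) and 2 rose (22.2%), against 38.1% and 34.2% of all tested genes. The median log2 fold change was -0.51. Ern1 was measured at 41.3, 46.4 and 49.0 CPM in the WT libraries and 12.1, 9.74 and 12.8 CPM in the Nono-KO libraries (log2 fold change -1.98, standard error 0.13, adjusted p = 1.93e-07). Atf6 stood at 120.0, 112 and 106 CPM in the WT libraries and 31.6, 30.6 and 39.2 CPM in the Nono-KO libraries (log2 fold change -1.74, standard error 0.11, adjusted p = 1.74e-07). For both genes the highest Nono-KO library lay far below the lowest WT library, and the group means were 3.95-fold and 3.34-fold lower in Nono-KO. Xbp1, whose spliced mRNA encodes the factor downstream of Ern1, gave 172, 190.2 and 197 CPM in the WT libraries and 125, 123 and 122 CPM in the Nono-KO libraries (log2 fold change -0.59, standard error 0.08, adjusted p = 5.58e-05). Spliced and unspliced Xbp1 are summed in these counts. Mbtps1, the site-1 protease, gave 241, 264 and 285 CPM in the WT libraries and 186, 191 and 179 CPM in the Nono-KO libraries (log2 fold change -0.51, standard error 0.09, adjusted p = 2.28e-04). In none of these 4 genes did a Nono-KO library reach the WT range.

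Of the 4 membrane-bound factors related to Atf6, Creb3 and Atf6b rose and Creb3l1 and Creb3l2 did not pass. Creb3, a membrane-bound factor released by the same proteases, gave 87.1, 97.0 and 101 CPM in the WT libraries and 242, 228 and 228 CPM in the Nono-KO libraries (log2 fold change 1.29, standard error 0.09, adjusted p = 2.52e-07). Its level in every Nono-KO library was more than that in any WT library, and the means differed 2.45-fold. Atf6b, the paralog of Atf6, also rose (121 ± 12.6 CPM for WT against 147 ± 9.18 CPM for Nono-KO, log2 fold change 0.29, standard error 0.10, adjusted p = 0.0181), but its adjusted p was 0.0855, 0.0595 and 0.0837 without Nono-KO replicate 1, Nono-KO replicate 2 and WT replicate 2. Creb3l1, which controls collagen secretion genes, was measured at 429, 292 and 381 CPM in the WT libraries and 298, 318 and 288 CPM in the Nono-KO libraries, with overlapping groups (log2 fold change -0.29, standard error 0.12, adjusted p = 0.0527). Creb3l2 had 153 ± 11.8 CPM for WT against 146 ± 4.79 CPM for Nono-KO (log2 fold change -0.07, standard error 0.09, adjusted p = 0.502). Creb3l1 passed as lower without WT replicate 2, its lowest WT library (adjusted p = 0.00149). Mbtps2, the site-2 protease, had 0.819 to 1.98 CPM in all libraries, and its log2 fold change of -0.58 did not pass (adjusted p = 0.0871). Within a library, the ratio of Atf6 to Atf6b counts was 0.941 ± 0.0953 (SD, n = 3) in WT and 0.231 ± 0.0471 in Nono-KO, a description chosen after the values were seen.

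**Figure D2:**
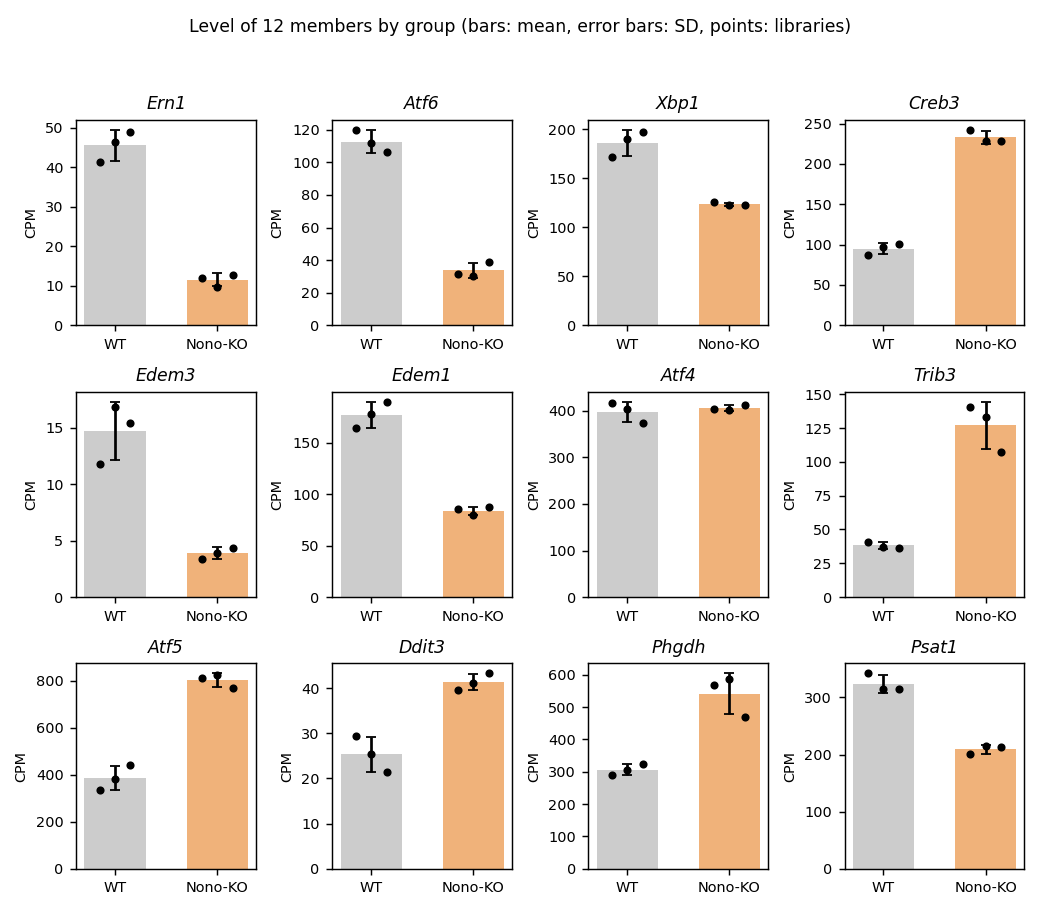
Levels in CPM (TMM scaled, linear axes from 0) of 12 members, with bars for the group mean, error bars for the SD and 1 point per library (n = 3). The Nono-KO points of Ern1, Atf6, Xbp1, Edem3, Edem1 and Psat1 lie below all WT points, those of Creb3, Trib3, Atf5, Ddit3 and Phgdh lie above them, and those of Atf4 overlap with them.

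Among genes of folding and translocation no fitted change reached 2-fold in either direction. The median log2 fold change was 0.09. Of the 10 genes 4 fell (40%) and 2 rose (20%), against 38.1% and 34.2% of all tested genes, and 4 did not pass the test. Those that fell were disulphide isomerases and an oxidase. P4hb, the protein disulphide isomerase, gave 1533, 1551 and 1503 CPM in the WT libraries and 1326, 1328 and 1329.7 CPM in the Nono-KO libraries (log2 fold change -0.20, standard error 0.07, adjusted p = 0.0196). Pdia4 gave 503, 695 and 525 CPM in the WT libraries and 339, 326 and 404 CPM in the Nono-KO libraries (log2 fold change -0.69, standard error 0.13, adjusted p = 4.38e-04). Both sets of libraries were separate, and the Nono-KO libraries were lower. The call of P4hb was lost under DESeq2 and with RLE size factors (adjusted p = 0.0637 and 0.111) and without any 1 of Nono-KO replicates 1, 2 and 3 (0.111, 0.114 and 0.0555). Ero1a, the oxidase that reoxidizes P4hb, fell from 27.7 ± 2.24 to 15.6 ± 1.02 CPM (SD, n = 3; log2 fold change -0.82, standard error 0.11, adjusted p = 5.07e-05), and Pdia6 fell as well (413 ± 60.0 CPM for WT against 309.6 ± 11.8 CPM for Nono-KO, log2 fold change -0.41, standard error 0.10, adjusted p = 0.00356).

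The 2 members that rose in this group were Sdf2l1 and Creld2. Sdf2l1, a component of an ER chaperone complex, had 52.8 ± 2.79 CPM for WT against 71.8 ± 7.79 CPM for Nono-KO (log2 fold change 0.44, standard error 0.10, adjusted p = 0.00184). Creld2, a secreted ER stress-inducible protein whose promoter holds the element printed earlier, had 49.0 ± 0.296 CPM for WT against 61.4 ± 2.93 CPM for Nono-KO (log2 fold change 0.33, standard error 0.08, adjusted p = 0.00415). In both, all Nono-KO libraries were above all WT libraries. Hyou1, a large ER chaperone, Manf, an ER stress-inducible secreted factor, and Sec61b, a translocon subunit, had log2 fold changes of 0.16, 0.09 and 0.16 that did not pass (adjusted p = 0.219, 0.424 and 0.151), though Hyou1 passed as higher without WT replicate 3 (0.0153). Ero1b was near 1 CPM in all libraries (0.796 to 1.22 CPM) with a log2 fold change of 0.09 (adjusted p = 0.786).

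In ER-associated degradation, which carries misfolded proteins back to the cytosol for the proteasome, the Edem paralogs went in opposite directions. Of the 9 genes 3 fell and 3 rose (33.3% each), against 38.1% and 34.2% of all tested genes. The median log2 fold change was 0.18. The Edem proteins trim mannose from misfolded glycoproteins. Edem3 was at 11.8, 16.9 and 15.5 CPM in the WT libraries and 3.39, 3.90 and 4.40 CPM in the Nono-KO libraries (log2 fold change -1.91, standard error 0.18, adjusted p = 2.78e-06). Edem1 was at 164, 178 and 189.9 CPM in the WT libraries and 85.2, 79.7 and 87.2 CPM in the Nono-KO libraries (log2 fold change -1.08, standard error 0.09, adjusted p = 9.43e-07). Edem2, in contrast, rose from 44.4, 43.6 and 44.3 CPM to 66.4, 63.3 and 61.4 CPM (log2 fold change 0.53, standard error 0.08, adjusted p = 1.32e-04). No Nono-KO library of any of the 3 genes fell within its WT range, and the ratio of Edem1 to Edem2 counts was 4.02 ± 0.298 (SD, n = 3) in WT and 1.32 ± 0.0863 in Nono-KO (chosen after the values were seen).

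Sel1l and Syvn1 encode the scaffold and the ubiquitin ligase of the Hrd1 complex. Sel1l fell (148 ± 1.98 CPM for WT against 93.3 ± 3.19 CPM for Nono-KO, log2 fold change -0.67, standard error 0.08, adjusted p = 1.36e-05). Syvn1 had 82.3 ± 11.1 CPM for WT against 71.4 ± 2.85 CPM for Nono-KO, with overlapping groups (log2 fold change -0.20, standard error 0.10, adjusted p = 0.0963). Herpud1, an ER stress-inducible membrane protein that assembles with this complex, rose, with 129, 115 and 129 CPM in the WT libraries and 155, 172 and 158 CPM in the Nono-KO libraries (log2 fold change 0.38, standard error 0.09, adjusted p = 0.00205). The derlins form part of the exit channel. Derl2 rose (32.5 ± 2.25 CPM for WT against 45.6 ± 2.00 CPM for Nono-KO, log2 fold change 0.49, standard error 0.09, adjusted p = 6.30e-04), whereas Derl1 at 177, 189 and 199 CPM in the WT libraries and 216, 223 and 199.9 CPM in the Nono-KO libraries did not pass although its groups did not overlap (log2 fold change 0.18, standard error 0.08, adjusted p = 0.0767). Derl3 was low in all libraries (2.34 to 4.84 CPM) and had a log2 fold change of 0.57 (adjusted p = 0.0579). Derl1 and Derl3 passed without Nono-KO replicate 3 (adjusted p = 0.0221 and 0.0305), which made 5 degradation genes that rose, Derl3 passed without WT replicate 1 (0.00487), and Syvn1 passed as lower without WT replicate 2 (0.0277). RefSeq lists the symbol Vimp as a synonym of Selenos, whose row had 96.4 ± 2.57 CPM for WT against 96.3 ± 2.39 CPM for Nono-KO (log2 fold change -0.00, adjusted p = 0.986), but Selenos was not counted among the members.

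The mRNA of Atf4 itself did not differ detectably, whereas several of the genes that Atf4 is known to activate rose. Atf4 stood at 417, 403 and 373 CPM in the WT libraries and 405, 401 and 413 CPM in the Nono-KO libraries (log2 fold change 0.03, standard error 0.08, adjusted p = 0.732), and the 95% interval of its log2 fold change ran from -0.14 to 0.20. Of the 10 regulators and effectors 6 rose (60%), 1 fell (10%) and 3 did not pass, with a median log2 fold change of 0.69. Over all tested genes 34.2% rose and 38.1% fell. Trib3, a pseudokinase that restrains Atf4 and Akt, had the largest rise, from 41.1, 37.4 and 36.2 CPM to 141, 133 and 107 CPM (log2 fold change 1.73, standard error 0.11, adjusted p = 2.11e-07). Atf5, a bZIP factor under translational control like Atf4, rose from 336, 381 and 440.0 CPM to 813, 825 and 768 CPM (log2 fold change 1.06, standard error 0.10, adjusted p = 2.71e-06). Ddit3 (Chop), a factor linked to cell death under prolonged ER stress, was at 29.3, 25.3 and 21.5 CPM in the WT libraries and 39.7, 41.1 and 43.3 CPM in the Nono-KO libraries (log2 fold change 0.70, standard error 0.12, adjusted p = 2.32e-04). The lowest Nono-KO library was above the highest WT library for each of these 3 genes, and their means were 3.33-, 2.08- and 1.63-fold those of WT.

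Chac1, a glutathione-degrading enzyme, rose as well (45.7 ± 11.7 CPM for WT against 88.7 ± 2.66 CPM for Nono-KO, log2 fold change 0.96, standard error 0.15, adjusted p = 1.11e-04). Cebpb, a bZIP partner of Atf4, had 132 ± 18.1 CPM for WT against 229 ± 12.0 CPM for Nono-KO (log2 fold change 0.80, standard error 0.11, adjusted p = 3.45e-05), and Nupr1, a stress-inducible nuclear protein, had 111 ± 17.2 CPM for WT against 177 ± 9.56 CPM for Nono-KO (log2 fold change 0.68, standard error 0.11, adjusted p = 1.79e-04). All 3 had groups that did not overlap. Cebpg, another partner, did not pass (log2 fold change -0.18, adjusted p = 0.09999), but was lower without WT replicate 1 (adjusted p = 0.0346), which made 2 genes of the 10 that fell.

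Ppp1r15a and Ppp1r15b encode alternative subunits that direct a phosphatase to eIF2alpha, the stress-inducible and the constitutive one. Ppp1r15b was at 103, 113 and 104 CPM in the WT libraries and 52.4, 50.2 and 56.4 CPM in the Nono-KO libraries (log2 fold change -1.01, standard error 0.09, adjusted p = 1.54e-06). Its groups did not overlap, and the mean was 2.01-fold lower in Nono-KO. Ppp1r15a overlapped between groups (96.2 ± 8.26 CPM for WT against 102 ± 7.94 CPM for Nono-KO, log2 fold change 0.09, standard error 0.10, adjusted p = 0.432). The ratio of Ppp1r15b to Ppp1r15a counts was 1.11 ± 0.0906 (SD, n = 3) in WT and 0.522 ± 0.0672 in Nono-KO, again chosen after the values were seen.

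Enzymes of serine, one-carbon and asparagine synthesis, which Atf4 is also known to activate, went in both directions, also within serine synthesis. Of the 6 genes 2 rose and 2 fell (33.3% each), against 34.2% and 38.1% of all tested genes, and 2 did not pass. The median log2 fold change was 0.20. Phgdh, the first enzyme of serine synthesis, was at 291, 304 and 324 CPM in the WT libraries and 568, 587 and 469 CPM in the Nono-KO libraries (log2 fold change 0.82, standard error 0.10, adjusted p = 1.49e-05). Psat1, the next enzyme, fell from 342, 315 and 315 CPM to 200.4, 214 and 213 CPM (log2 fold change -0.63, standard error 0.08, adjusted p = 2.33e-05). Psph, the last enzyme, had 78.8 ± 5.16 CPM for WT against 89.6 ± 6.88 CPM for Nono-KO (log2 fold change 0.19, standard error 0.09, adjusted p = 0.0921). The mRNA of the first enzyme was thus higher, that of the second lower and that of the third within overlapping ranges. The ratio of Phgdh to Psat1 counts was 0.949 ± 0.0914 (SD, n = 3) in WT and 2.59 ± 0.339 in Nono-KO (chosen after the values were seen). Shmt2, which moves a carbon from serine to folate in mitochondria, was at 297, 255 and 292 CPM in the WT libraries and 442, 432 and 389 CPM in the Nono-KO libraries (log2 fold change 0.58, standard error 0.09, adjusted p = 1.14e-04). Mthfd2, the next mitochondrial folate enzyme, had 114 ± 14.8 CPM for WT against 132 ± 5.54 CPM for Nono-KO, with overlapping groups (log2 fold change 0.22, standard error 0.10, adjusted p = 0.0706). Mthfd2 passed without WT replicate 1 (adjusted p = 0.00291) and Psph without Nono-KO replicate 3 (0.0257). Asns, asparagine synthetase, fell (103 ± 4.68 CPM for WT against 80.2 ± 0.970 CPM for Nono-KO, log2 fold change -0.37, standard error 0.08, adjusted p = 0.00151).

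**Figure D3:**
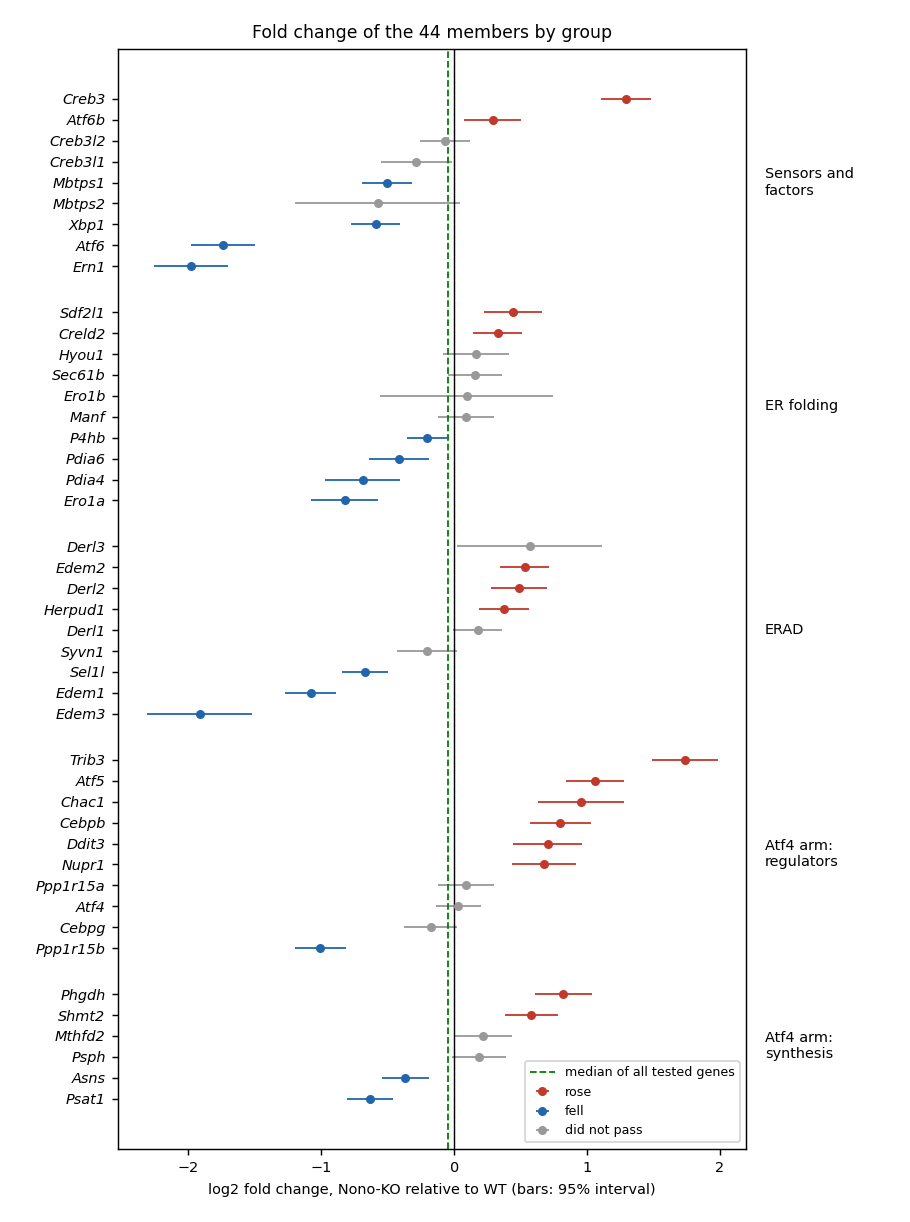
Log2 fold change (Nono-KO minus WT) of the 44 members by group, with bars for the 95% interval, colours for rose (red), fell (blue) and did not pass (grey), and a dashed line at the median of all tested genes. In the group of Atf4 regulators and effectors 6 of 10 lie above 0 and passed, and among the sensors and factors 4 of 9 lie below 0 and passed. Over all tested genes 34.2% rose and 38.1% fell.

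Both Atf4 groups together held 16 genes, of which 8 rose and 3 fell (median log2 fold change 0.40), and the other 3 groups held 28, of which 7 rose and 11 fell (median -0.14). Against all tested genes, of which 34.2% rose and 38.1% fell, 60.0% of the regulators and effectors rose and 10.0% fell. These counts describe the lists and were not tested against one another.

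Other genes of the same pathways were taken from 7 lists. Of 157 tested genes 46 rose (29.3%) and 70 fell (44.6%), against 34.2% and 38.1% of all tested genes. The median log2 fold change was -0.17. Among the kinases of eIF2alpha and the subunits of eIF2 and eIF2B, 3 of 12 rose (25.0%) and 5 fell (41.7%). Eif2ak3, the ER-resident kinase, fell (from 23.2 to 12.2 mean CPM, log2 fold change -0.93, adjusted p = 2.49e-05), whereas Eif2ak1, the heme-regulated kinase, had 126 ± 3.68 CPM for WT against 131 ± 9.49 CPM for Nono-KO (log2 fold change 0.06, adjusted p = 0.543). The kinase Eif2ak4, named after its values were seen, also fell (log2 fold change -0.52, adjusted p = 0.00188). Eif2ak2 did not pass (log2 fold change -0.07, adjusted p = 0.739). The eIF2 subunits Eif2s2 and Eif2s3 fell (-1.26 and -1.13 on the log2 scale), and the subunits Eif2b2 and Eif2b4 of its exchange factor rose (0.59 and 0.98). All 3 sensors of the UPR, Ern1, Atf6 and Eif2ak3, thus had lower mRNA in Nono-KO.

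Of 28 further ER chaperones and folding enzymes 15 fell (53.6%) and 5 rose (17.9%), against 38.1% and 34.2% of all tested genes, with a median of -0.35. The J proteins Dnajc10 (from 92.8 to 31.1 mean CPM, log2 fold change -1.57) and Dnajc3 (from 26.2 to 11.5 mean CPM, log2 fold change -1.19), the calcium-binding Calu (from 715 to 287 mean CPM, log2 fold change -1.32) and the thioredoxin-like Tmx3 (from 34.1 to 15.3 mean CPM, log2 fold change -1.16) had the largest falls among genes of at least 5 CPM. The abundant calreticulin gene Calr (1730.3 and 1976 mean CPM in WT and Nono-KO, log2 fold change 0.19, adjusted p = 0.0922) and the glucosidase Ganab (738 and 771 mean CPM in WT and Nono-KO, log2 fold change 0.06, adjusted p = 0.512) did not pass. The central chaperones Hspa5 (BiP), Hsp90b1 and Canx, named after their values were seen, fell by 0.62, 0.86 and 1.05 on the log2 scale (adjusted p = 4.25e-04, 3.34e-04 and 4.64e-05). Their WT libraries spread widely and were lowest in WT replicate 1 (Hspa5 434, 603 and 560 CPM, Hsp90b1 271, 449 and 373 CPM). The 5 genes that rose were Mogs, Sil1, Tmbim6, Rtcb and Dnajb11 (0.56, 0.51, 0.27, 0.26 and 0.23).

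Further degradation factors gave 10 of 27 that fell (37.0%) and 7 that rose (25.9%), against 38.1% and 34.2% of all tested genes. The ubiquitin ligases Rnf139 and Marchf6, the lectin Erlec1 and the ATPase Vcp fell (-1.21, -1.19, -1.04 and -0.88 on the log2 scale). Of 21 genes of the translocon, signal peptidase and signal recognition, 9 fell (42.9%) and 7 rose (33.3%). The signal peptidase subunit Spcs3, the signal recognition subunit Srp72 and the translocon-associated Ssr1 and Ssr3 fell (-1.58, -1.46, -1.25 and -1.24), the channel subunit Sec61a1 fell by 0.23, and Ssr2 rose by 0.30.

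Of 31 other targets of Atf4 15 rose (48.4%) and 11 fell (35.5%), against 34.2% and 38.1% of all tested genes (median 0.16). The mTOR inhibitors Ddit4 (from 27.3 to 136 mean CPM, log2 fold change 2.32) and Sesn2 (from 73.3 to 208 mean CPM, log2 fold change 1.50) rose, as did the autophagy receptor Sqstm1 (from 700.5 to 1060.5 mean CPM, log2 fold change 0.60). The amino acid transporter Slc7a1 (from 409 to 170.3 mean CPM, log2 fold change -1.26) and Klhl24 (from 13.4 to 5.48 mean CPM, log2 fold change -1.29) fell, and Aldh18a1, an enzyme of proline synthesis, did not pass (453 and 508 mean CPM in WT and Nono-KO, log2 fold change 0.16, adjusted p = 0.0742). Of 20 cytosolic aminoacyl-tRNA synthetases, several of which are known Atf4 targets, 10 fell (50%) and 6 rose (30%), against 38.1% and 34.2% of all tested genes. Lars1, Rars1, Eprs and Farsb fell (-1.06, -0.98, -0.93 and -0.67), Sars1 rose by 0.51, and Aars1 had 0.11 (adjusted p = 0.289). Of 18 cytosolic heat shock genes, which answer to another stress pathway, 10 fell (55.6%) and 3 rose (16.7%). Among them Hspa4, Hsph1, Hsf2 and Hsp90ab1 fell (-1.42, -1.39, -1.13 and -0.26) and Hspb1 rose (0.94).

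**Figure D4:**
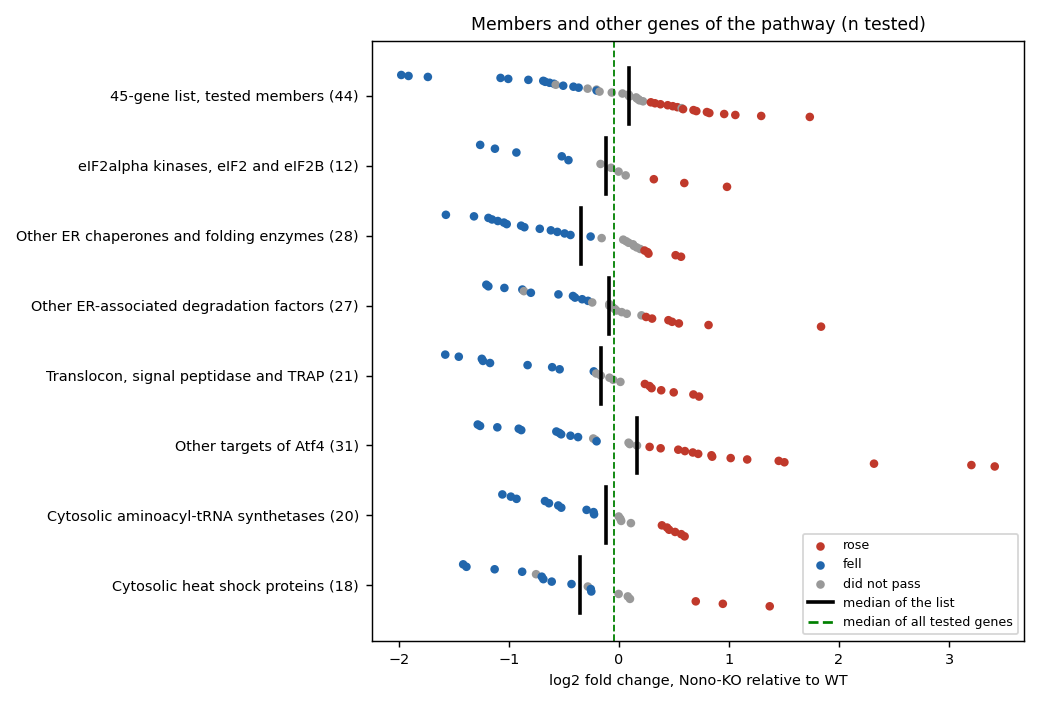
Log2 fold change (Nono-KO minus WT) of the 44 members and of each tested gene in 7 further lists, 1 point per gene (red rose, blue fell, grey did not pass), with a black line at the median of each list and a dashed line at the median of all tested genes, -0.05. The medians run from -0.36 for the cytosolic heat shock genes to 0.16 for the other Atf4 targets, and every list spreads to both sides of 0.

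Promoter letters and the measured changes were set side by side as a description. The 5 genes with the C/EBP-Atf element were Trib3, Chac1, Nupr1 and Herpud1, which rose, and Ppp1r15b, which fell. Over the 9354 tested genes with a promoter in the table, 36.7% of those with the element rose and 34.0% of those without it. The shares that fell were 41.2% and 38.9%, and the median log2 fold change was -0.16 with it and -0.07 without it. Of the 4 genes with the ER stress response element, Creld2 rose, Xbp1 fell, and Derl3 and Ero1b did not pass. The 16 tested genes with that element had a median log2 fold change of -0.32, against -0.07 for those without it.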

How the data were processed

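The data were 3 WT and 3 Nono-KO RNA-seq libraries of the H9c2 line. The authors deposited raw counts per gene symbol from stranded mRNA libraries, unscaled and not pooled. Trimmomatic, HISAT2, HTSeq and mRatBN7.2 are named in the submitters' processing notes, while the study's methods name Bowtie2 and Rn6. Whether strand was used in counting, and the annotation, were not given in the sources used here, so reads of paralogs, overlapping genes or antisense genes may have been split or dropped. Libraries were grouped by the genotype in the labels. The 45 genes, the lists and the tests were chosen with earlier results of these data known.

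Counts were tested in R 4.3.3 with edgeR 4.0.16 (glmQLFit with robust dispersions, TMM, filterByExpr, Benjamini-Hochberg), which kept 12028 of 16319 genes. Standard errors were derived from the fold change and the F statistic, and intervals are 95%. DESeq2 1.42.0, RLE and total-count scaling, other filters and thresholds, a replicate block and leaving out each library were alternatives. All members with an absolute log2 fold change over 1 that passed, Atf4, Atf6, Xbp1, Ern1 and Ddit3, and the 2 members with most reads in each group are given by library. Of each further list up to 4 genes with the largest change among those that passed with at least 5 CPM, and its 2 most abundant genes, are named, except for a result that is not reported here. No gene lengths were used, so abundance ranks and count ratios of different genes also depend on their lengths. Such ratios are compared only between WT and Nono-KO. On data simulated from these libraries the test called 29, 44, 50 and 50 of 50 genes changed 1.5-, 2-, 4- and 8-fold and 13 of 11711 unchanged ones. Only 50 genes per fold size were changed there, among 11911 tested. In the real data 34.2% of tested genes rose and 38.1% fell, so these rates do not carry over to them.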

Additional observations from a re-analysis of the deposited data

How the results depend on the processing

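Of the 29 members that rose or fell, 27 kept their call in all 13 alternatives, and Atf6b and P4hb did not. With RLE size factors 5 genes of ER-associated degradation and 4 of the synthesis group rose, with total counts 2 Atf4 regulators fell, and at an adjusted p under 0.01 only 1 sensor or factor rose. Leaving out 1 library at a time, 1 to 2 sensors and factors rose, 3 to 5 degradation genes rose and 1 to 2 Atf4 regulators fell. Allowing 1 mismatch, 11 member promoters held the ER stress response element, as did 1.41% of all promoters. Values near 0 changed sign without passing the test: Atf4 at -0.00422 without a filter, -0.0271 with total counts and -0.0191 without WT replicate 3, Ero1b at -0.0472 without Nono-KO replicate 3 and -0.0189 without WT replicate 1, and Manf at -0.00723 without WT replicate 1. Leaving out 1 library at a time, their highest values were 0.0608 for Atf4, 0.195 for Ero1b and 0.163 for Manf. The cause was not tested. The median log2 fold change of all genes was -0.05 with TMM, 0.00 with RLE, -0.11 with total counts and 0.10 with DESeq2. Deviations of same-numbered libraries correlated at 0.0454, -0.165 and -0.192, and those of differently numbered libraries at -0.125 to 0.251. With 3 libraries per group these values cannot tell whether same-numbered libraries were handled together, and the labels do not say. With a replicate block 16 members rose and 13 fell, with an adjusted p of 0.101 for P4hb and 0.0383 for Derl3. At these depths Ero1b, Mbtps2 and Derl3, with a few CPM, have wide intervals.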
